A study of Mus musculus with 8 samples.

Results

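The clustered protocadherins are the genes of the alpha, beta and gamma protocadherin arrays, which lie one after another on mouse chromosome 18. They were taken as every gene in the deposited tables whose symbol is Pcdha, Pcdhac, Pcdhb, Pcdhga, Pcdhgb or Pcdhgc followed by a number. This gave 57 of 32285 genes, of which 14 belong to the alpha, 22 to the beta and 21 to the gamma cluster. The study measured RNA in single nuclei from 2 brain regions, the caudate putamen and the anterior hippocampus, of inbred C57BL/6JN mice at 3 and 21 months of age. There were 8 libraries, 2 for each region and age, and the labels name no transgene or treatment for any group. Nuclei came from punches of the left hemisphere, were sorted by their Hoechst DNA stain, and each library combined the nuclei of 1 male and 1 female mouse of the same age in equal numbers. The labels do not say whether the libraries of the 2 regions came from the same animals. The 2 libraries of a group are therefore pools, and the p-values of the age and region comparisons below measure the spread between pools. Those of comparisons between classes measure the spread of class differences within libraries, over both ages.

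Clustered protocadherins are cell surface proteins of the cadherin superfamily. The proteins bind identical partners on the neighbouring cell, and single neurons are known to express different small sets of them, which lets a neuron tell its own branches from those of others and keeps them apart. Each alpha and gamma gene has its own promoter and first exon, which carries the extracellular part and is spliced to constant exons shared by the cluster, whereas a beta gene is a single large exon with no constant part. The promoters are chosen with the help of the DNA binding protein CTCF, cohesin loops and DNA methylation. The C-type members Pcdhac1, Pcdhac2, Pcdhgc3, Pcdhgc4 and Pcdhgc5 stand at the ends of the alpha and gamma arrays, and their expression is known to be less random from cell to cell. In astrocytes the gamma genes are known to act in contacts with neurons and in the shape of the cell.

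In the GRCm38 assembly all 57 genes are read from the plus strand. The alpha genes lie between positions 36930184 and 37187661 of chromosome 18, the beta genes between 37264938 and 37524479, and the gamma genes between 37661793 and 37841873. Of the 22 beta genes, 18 were annotated with a single exon. The median exon length was 5356 bases for alpha, 3714 for beta and 4882 for gamma genes. Pcdhb14, the member with the highest mean level in the beta cluster, is 1 exon of 8695 bases from 37447656 to 37456350, and no other gene of the deposited tables overlaps it. The alpha and gamma gene models reach over one another to the shared constant exons, so a read from a constant exon or from an intron between the arrays' first exons could not be told apart between members of a cluster. This limits the values of single alpha and gamma members. The plus-strand gene Gm38182 also overlaps exons of the gamma members. Among the beta members, Pcdhb21 and Pcdhb22 overlap at their ends on the same strand, so some of their reads could not be told apart either. Pcdhb12 overlaps Gm37446, which lies on the opposite strand. The alpha symbol Pcdha11 is carried by 2 identifiers, ENSMUSG00000007440 and ENSMUSG00000102206, which are kept apart below.

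After removal of poor barcodes and doublets the libraries held 6387 to 17012 nuclei, with a median of 6664 to 11327 UMIs (unique molecules) per nucleus and 64505372 to 186402411 UMIs in all. Pairs of libraries shared 21 to 146 barcodes, at most 0.774% of the smaller library. Nuclei were clustered without the member genes and named from marker genes, so each class name below means a cluster that is like that cell type. Nuclei in clusters without a name made up 2.63% to 13.2% of a library. Scrublet, the doublet caller, at its own threshold marked 40.4% of the nuclei of the second hippocampal library at 3 months, and a stricter threshold was used there. One caudate putamen library, the second at 3 months, carries another Cell Ranger version in its file header than the other 7. Levels are in CPM, the UMIs of a gene over all UMIs of the class in that library on the counts-per-million scale, listed as both 3-month libraries and then both 21-month libraries.

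Alpha members were largely a neuronal and precursor cell signal. The summed alpha level was 16.97 and 18.0 CPM at 3 months and 23.0 and 19.9 CPM at 21 months in dentate granule-like neurons. It was 16.9, 17.4, 27.6 and 22.9 CPM in D1-like medium spiny neurons, the neurons of the direct striatal pathway that carry the dopamine receptor Drd1. Oligodendrocyte precursor-like (OPC-like) nuclei had levels in the neuronal range, with 19.8, 25.6, 37.3 and 25.4 CPM in the hippocampus. Astrocyte-like nuclei had only 3.17, 2.30, 3.23 and 2.38 CPM in the hippocampus and 2.40, 3.04, 3.97 and 3.61 CPM in the caudate putamen, below every neuronal library. Oligodendrocyte-like nuclei, the myelin-forming cells, stood between 3.13 and 7.67 CPM over the 8 libraries. The part of neuronal RNA in these low astrocyte- and oligodendrocyte-like sums was not tested.

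Over the 4 libraries of a region, the beta sum had its highest means in hippocampal astrocyte-like nuclei and in the OPC-like nuclei of both regions, and the gamma sum in fibroblast-like and astrocyte-like nuclei, followed by endothelial-like nuclei of the hippocampus at 140.1, 118, 112 and 95.95 CPM. The summed gamma level was 127, 129, 133 and 114 CPM in hippocampal astrocyte-like nuclei and 122, 127, 127 and 127 CPM in those of the caudate putamen, while dentate granule-like neurons had 54.0 to 67.0 CPM. Among the classes shown, fibroblast-like nuclei of the hippocampal libraries had the highest gamma sum, 204 and 226 CPM at 3 months and 247.8 and 249.5 CPM at 21 months. The summed beta level at 3 months was highest in OPC-like nuclei, with 67.3 and 79.2 CPM in the hippocampus and 68.4 and 82.0 CPM in the caudate putamen. At 21 months it was highest in hippocampal astrocyte-like nuclei, with 131 and 126 CPM, where both 21-month libraries stood far above both 3-month libraries at 60.8 and 65.2 CPM. Microglia-like nuclei, the immune cells of the brain, had a beta sum of 22.0 to 37.2 CPM over the 8 libraries. Both 3-month sums of dentate granule-like neurons lay within that range.

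**Figure D1:**
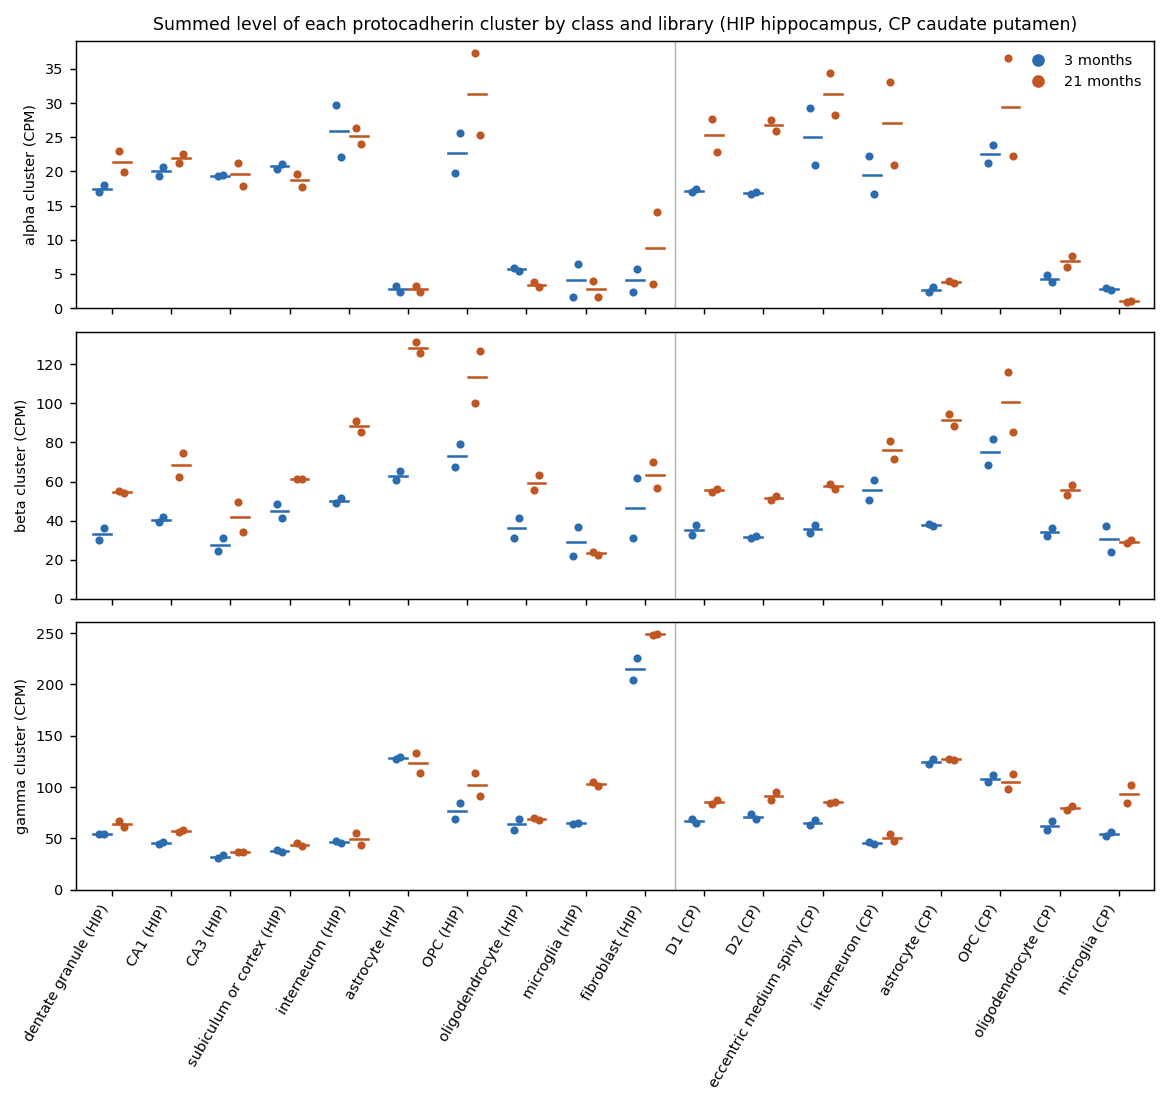
Summed level of the alpha (top), beta (middle) and gamma (bottom) cluster in CPM (vertical axes) by class, with hippocampus left and caudate putamen right of the grey line. Each point is 1 library, blue at 3 and orange at 21 months, and the bar is the mean of 2; the beta sum of astrocyte-like nuclei is 60.8 and 65.2 against 131 and 126 CPM in hippocampus, while their gamma sum overlaps between the ages.

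A few members held large shares of each cluster. Ranked by mean level, in the alpha cluster, Pcdha11 (ENSMUSG00000102206) held 33.1% of all alpha UMIs, followed by Pcdha4 with 13.7% and Pcdha5 with 11.6%. Ranked likewise, Pcdhb14 held 17.2% of the beta UMIs, Pcdhb17 held 10.5% and Pcdhb16 held 8.73%, while Pcdhb19, the next by mean level, held 8.85%. UMI counts need not grow with the length of a gene, so the order of members depends on the scale. Divided by the kb of exon, Pcdhb17 was first of the beta members with a mean of 1.22 CPM per kb over the classes, and Pcdhb14 was the fourth with 1.05 CPM per kb. Pcdhga12 was first of the gamma members both in share, with 18.5% of gamma UMIs, and per kb, with 2.08 CPM per kb. At the other end, Pcdhb1 had 12 UMIs in all, and Pcdhga4 held 0.331% of the gamma UMIs.

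**Figure D2:**
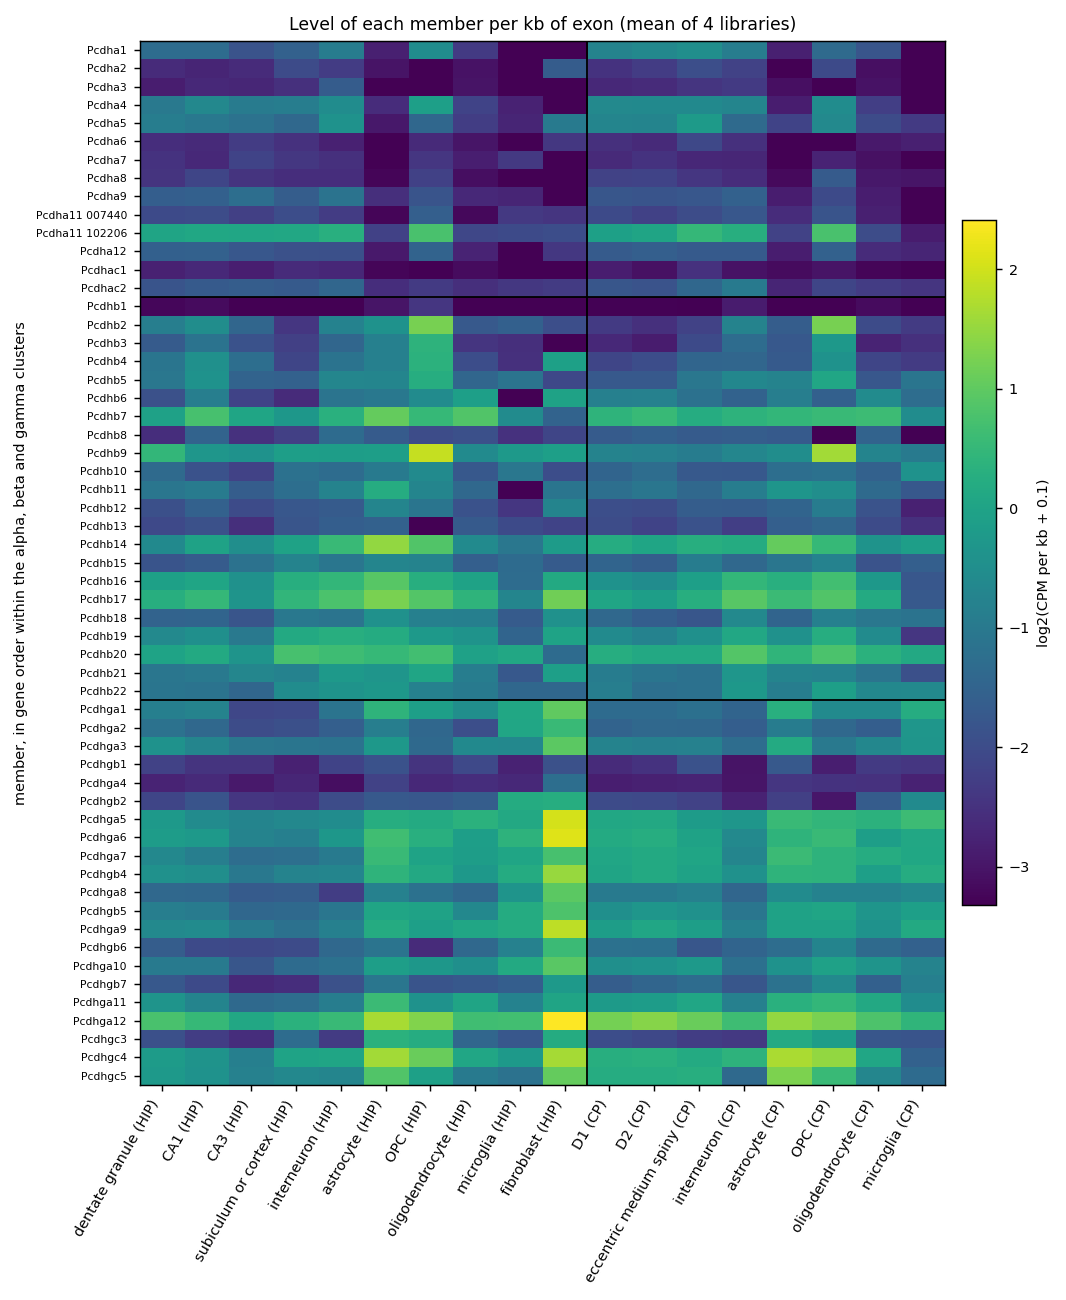
Level of each of the 57 members as log2(CPM per kb of exon + 0.1), mean over the 4 libraries of a region, with members in gene order within the alpha, beta and gamma clusters (rows) and classes by region (columns). Class names are short forms of the X-like names; most alpha rows are dark in astrocyte- and microglia-like nuclei, Pcdhga12 is the brightest gamma row in fibroblast-like nuclei, and Pcdhb9 stands out in OPC-like nuclei.

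The C-type members differed in where they were found. Pcdhgc3 was at 7.10, 6.41, 5.98 and 6.07 CPM in hippocampal astrocyte-like nuclei and at 0.875, 0.765, 1.15 and 0.781 CPM in dentate granule-like neurons, and the 2 classes did not overlap. Pcdhgc4 reached 15.9, 18.0, 15.7 and 19.9 CPM and Pcdhgc5 reached 18.1, 16.9, 16.3 and 20.1 CPM in astrocyte-like nuclei of the caudate putamen, with the ages overlapping for both. Pcdhac2 had its highest mean in interneuron-like nuclei of the caudate putamen, at 2.82, 1.50, 3.59 and 1.61 CPM, and Pcdhac1 stayed below 1 CPM in every neuronal library. Pcdhb9 was highest in OPC-like nuclei, at 9.88, 6.55, 10.3 and 17.6 CPM in the hippocampus against 2.67, 3.34, 4.59 and 5.05 CPM in dentate granule-like neurons.

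Neurons were compared with glia as the mean of the neuronal classes of a region minus the mean of the astrocyte-, oligodendrocyte-, OPC- and microglia-like classes, with the library as a block, by edgeR's quasi-likelihood test at an adjusted p under 0.05. In the hippocampus 6 of the 37 members tested were higher in neurons, where 39.1% of all genes were, and 9 were lower, where 34.7% of all genes were. In the caudate putamen 11 of 35 were higher, against 37.8% of all genes, and 2 were lower, against 39.8%. Without the filter on low counts, of 57 members 15 were higher and 9 lower in the hippocampus, and 21 and 2 in the caudate putamen. No share of all genes is given for that fit. All 4 alpha members that passed that filter were higher in neurons in both regions. The filter keeps a member that is high enough in a single class, so it can keep alpha members through their neuronal levels. Without it all 14 alpha members were higher in both regions, 14 of them called in the hippocampus and 13 in the caudate putamen. Pcdha11 (ENSMUSG00000102206) had a log2 difference of 2.40 (SE 0.135, adjusted p = 6.29e-17) in the hippocampus and 2.52 (SE 0.166, adjusted p = 4.09e-15) in the caudate putamen. Pcdha1 differed by 2.94 and 3.66, Pcdha4 by 2.18 and 3.83, and Pcdha5 by 2.58 and 1.72 on the log2 scale. Lower in neurons in both regions were Pcdhgc3, by -1.89 in the hippocampus and -1.26 in the caudate putamen, and Pcdhga1, by -1.06 and -1.24; Pcdhga10 was lower by -0.86 in the hippocampus. Scaling by total UMIs instead of TMM factors shifted the median of all genes by -0.415 in the hippocampus and -0.342 in the caudate putamen. With it 4 members were higher and 14 lower in the hippocampus, and 6 higher and 15 lower in the caudate putamen, with the 4 alpha members still among the higher ones. Of all genes 4118 were then higher and 8708 lower of 16403 in the hippocampus, and 4190 and 9166 of 16451 in the caudate putamen.

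Between astrocyte- and oligodendrocyte-like nuclei the C-type gamma members and Pcdhb14 were among the largest differences. Higher in astrocyte-like than in oligodendrocyte-like nuclei were 20 of 37 members in the hippocampus, where 31.3% of all genes were higher, and 15 of 35 in the caudate putamen, where 31.8% were. Only 1 member was lower in each region, where 26.5% and 32.1% of all genes were lower, namely Pcdhb6 in the hippocampus (log2 difference -1.09, SE 0.352) and Pcdha1 in the caudate putamen (-1.98, SE 0.568). Pcdhgc3 was higher in astrocyte-like nuclei by 2.14 (SE 0.281) and 2.45 (SE 0.295), Pcdhgc5 by 2.06 and 2.13, and Pcdhgc4 by 1.68 in both regions. Pcdhb14 was higher by 2.22 (SE 0.171, adjusted p = 2.78e-13) in the hippocampus and 1.55 (SE 0.164, adjusted p = 5.65e-10) in the caudate putamen, and Pcdhb3 by 2.37 in the hippocampus.

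Interneuron-like nuclei were compared with the main neurons of each region, and the share of members called was below that of all genes except on the lower side in the caudate putamen. In the caudate putamen 6 of 35 members were higher than in D1- and D2-like neurons, against 30.1% of all genes, all 6 beta members, among them Pcdhb5 (1.05, SE 0.363), Pcdhb18 (0.78) and Pcdhb17 (0.76). There 14 members were lower, against 32.7% of all genes, of which 12 belonged to the gamma cluster. Pcdhgc5 was at 2.19, 1.71, 1.44 and 3.49 CPM in interneuron-like nuclei and at 7.39, 6.85, 8.51 and 10.1 CPM in D1-like neurons, with no overlap, a log2 difference of -2.18 (SE 0.193, adjusted p = 1.17e-11) against both medium spiny classes. Pcdhga9 and Pcdhgb5 were both lower by -1.21. In the hippocampus 6 of 37 were higher, against 24% of all genes, and 2 were lower, against 25.6%. They included Pcdhb19 (0.91), Pcdhb14 (0.81) and Pcdhb22 (0.79) on the higher side, and Pcdhga3 (-1.04) and Pcdhgc5 (-0.50) on the lower. Total UMI scaling moved the median of all genes by 0.312 in the caudate putamen and 0.174 in the hippocampus, and the split became 8 higher to 11 lower and 9 higher to 0 lower. Of all genes 7552 were then higher and 3172 lower of 16451 in the caudate putamen, and 5435 and 2833 of 16403 in the hippocampus.

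Among the main neurons, CA1-like pyramidal neurons differed from dentate granule-like neurons in 8 of 37 members, and D1-like from D2-like neurons in none of 35. Higher in CA1-like neurons were 7 members, against 23.2% of all genes, and 1 was lower, against 25.9%. Pcdhb6 differed by 1.46 (SE 0.290), Pcdhb7 by 0.86 and Pcdhb3 by 0.81, while Pcdhb9 was lower by -0.76 (SE 0.211). The 8 calls became 4 without the first hippocampal library at 3 months and 5 without the second at 21 months. Between D1- and D2-like neurons 6.25% of all genes were higher and 3.26% lower, and no member passed by edgeR or DESeq2. By edgeR 1 beta member was higher and 1 gamma member lower at an unadjusted p under 0.05, where 18.4% of all genes passed in either direction. Under total UMI scaling 1 member passed, where 1141 of all 16451 genes were higher and 479 lower.

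With age, the beta sum was higher at 21 months without overlap in 17 of the 21 classes of the 2 regions. The gamma sum was higher without overlap in 14 of the 21 and lower in 1, and the alpha sum higher in 7 and lower in 3. The classes of a region come from the same libraries, so these counts are not independent, and no such count over all genes is given. The alpha sum at 21 months was 0.608 times that at 3 months in oligodendrocyte-like nuclei of the hippocampus. In microglia-like nuclei of the caudate putamen it was 0.358 times as high. Both are low sums, and the part of neuronal RNA in them was not tested. For the beta sum the ages overlapped in microglia-like nuclei of both regions, in fibroblast-like nuclei and in endothelial-like nuclei of the caudate putamen. In hippocampal astrocyte-like nuclei the beta sum was 60.8 and 65.2 CPM at 3 months and 131 and 126 CPM at 21 months, 2.04 times as much. In those of the caudate putamen it was 38.1 and 37.0 against 94.7 and 88.5 CPM, 2.44 times as much. Neither region's ages overlapped, and 21 of 22 beta members had the higher mean at 21 months in each region, with 1 member lower in the hippocampus and 1 without a UMI in the caudate putamen. The file headers of the 2 libraries at 3 months of the caudate putamen name different Cell Ranger versions, and whether both counted intron reads alike is not given in the sources used here. Their beta sums were 38.1 and 37.0 CPM in astrocyte-like and 37.2 and 24.1 CPM in microglia-like nuclei, and the part of the version was not tested.

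Averaged over both regions, 7 members rose in astrocyte-like nuclei and none fell at an adjusted p under 0.05, where 2.07% of all 15032 genes tested rose. All 7 were beta members, among them Pcdhb14, whose rise in astrocyte-like nuclei was known when it was picked. Without the filter on low counts 13 beta members were called, with no share of all genes given for that fit. Pcdhb14 was at 15.4 and 14.03 CPM in the 3-month and 32.6 and 31.4 CPM in the 21-month hippocampal libraries. In the caudate putamen it was at 8.06 and 10.2 against 25.2 and 25.1 CPM. All 4 libraries at 21 months stood above all 4 at 3 months, and the log2 fold change was 1.34 (SE 0.125, adjusted p = 0.000155). It was 1.20 (SE 0.162, adjusted p = 0.00378) in the hippocampus alone and 1.48 (SE 0.191, adjusted p = 0.00525) in the caudate putamen alone. These fits took the libraries of the 2 regions as independent samples, which the labels do not settle.

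Pcdhb17 was at 7.10 and 8.47 against 13.03 and 14.3 CPM in the hippocampus and 3.70 and 3.87 against 9.68 and 9.03 CPM in the caudate putamen, so that its log2 fold change was 1.10 (SE 0.172, adjusted p = 0.00457). Pcdhb11 rose by 1.48 (SE 0.305) and was the only member besides Pcdhb14 to pass in the hippocampus alone, at 2.41 and 2.06 against 7.89 and 6.60 CPM. The others were Pcdhb7 (1.38), Pcdhb22 (1.20), Pcdhb6 (1.70) and Pcdhb16 (0.96). The astrocyte counts behind them were small, from 3 UMIs for Pcdhb6 in a 3-month library to 273 for Pcdhb14 in a 21-month library. The filter on low counts asks for enough UMIs in 2 libraries, so it can keep a member through its 21-month levels alone. This holds for the other age comparisons as well.

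The gamma sum of astrocyte-like nuclei overlapped between the ages in both regions. It was 0.964 times as high at 21 months in the hippocampus and 1.02 times in the caudate putamen. Of the 21 gamma members 8 had a higher and 13 a lower mean at 21 months in the hippocampus, and 13 and 8 in the caudate putamen. Of 18 gamma members tested none passed in either direction by edgeR. At an unadjusted p under 0.05, 1 was higher in the average over regions, 1 higher in the hippocampus and 1 lower in the caudate putamen, where 19.4%, 14.5% and 12.2% of all genes passed in either direction. The median log2 fold change of these 18 was 0.07 in the hippocampus, opposite in sign to the sum, and 0.09 in the caudate putamen. The alpha sum overlapped in the hippocampus and was 1.39 times as high, without overlap, in the caudate putamen, and no alpha member passed the filter on low counts. These alpha sums were low, below those of every neuronal library, and the part of neuronal RNA in them was not tested. Of the 22 beta members 17 passed that filter. Their median log2 fold change averaged over regions was 1.21, and that of all genes tested was -0.008. Without the filter, which can keep members through their 21-month levels, the median of all 22 was 1.20. Whether beta and gamma differed in their age effect was not tested.

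Single-exon genes outside the clusters were set beside the beta members, since most beta genes have 1 exon. In astrocyte-like nuclei, among 402 other single-exon genes tested the median log2 fold change was -0.011, with 5 rising and 3 falling, and among the 14 single-exon beta members tested it was 1.17. RNA of neuronal marker genes, a sign of free RNA or mixed nuclei, was lower in both 21-month astrocyte libraries of each region than in both 3-month ones. Its summed level over 10 genes was 984 and 1822 CPM at 3 months and 815 and 835 CPM at 21 months in the hippocampus, with 0 of 10 genes higher and none at 0. In the caudate putamen it was 1659 and 1827 against 1106 and 1453 CPM, with 2 of 10 genes higher. A list of reactive astrocyte genes was higher at 21 months as the beta members were, with a sum over 7 genes of 221 and 211 against 416 and 357 CPM in the hippocampus, 6 of 7 higher. In the caudate putamen that sum was 94.4 and 51.1 against 255 and 195 CPM, 7 of 7 higher, and C4b and Osmr passed the test averaged over regions. Its part in the beta result was not tested.

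Oligodendrocyte-like nuclei had the same direction. The beta sum was 31.4 and 41.2 against 55.6 and 63.4 CPM in the hippocampus and 32.3 and 36.2 against 53.4 and 58.1 CPM in the caudate putamen, without overlap. Averaged over regions 3 members rose and none fell, where 3.56% of all genes rose. Pcdhb7 was at 2.52 and 3.87 against 6.69 and 10.95 CPM in the hippocampus and 3.28 and 3.35 against 6.85 and 6.51 CPM in the caudate putamen, so that its log2 fold change was 1.25 (SE 0.220, adjusted p = 0.00890). Pcdhb14 rose by 1.20 (SE 0.247) and Pcdhb22 by 1.06 (SE 0.274). In a single region no member passed, where 0.697% of all genes rose in the hippocampus and 0.95% in the caudate putamen. Without the filter on low counts 3 beta members were called in each region, with no share of all genes given for that fit. The astrocyte marker RNA in these sums was 273 and 196 against 363 and 341 CPM in the caudate putamen, 8 of 8 genes higher, and 375, 415, 419 and 314 CPM in the hippocampus. In astrocyte-like nuclei themselves it was 11870 to 14670 CPM. The reactive list was at 18.5 and 23.1 against 81.3 and 91.3 CPM in the oligodendrocyte-like sums of the hippocampus, 6 of 7 genes higher, and at 15.4 and 13.1 against 111.1 and 111.1 CPM in those of the caudate putamen, 7 of 7 higher. Of its genes C4b (3.23), Serpina3n (2.35) and Cd44 (2.32) rose averaged over regions. C4b alone stood at 4.76 and 8.80 against 56.4 and 73.5 CPM in the hippocampus and at 10.5 and 11.7 against 99.2 and 101.5 CPM in the caudate putamen. Neuronal RNA was at 961 and 1912 against 748 and 716 CPM in the hippocampus, 0 of 10 genes higher, and at 1918, 1996, 1297 and 1993 CPM in the caudate putamen. The part of these signals in the beta result was not tested.

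In OPC-like nuclei the beta sum was 67.3 and 79.2 against 100 and 127 CPM in the hippocampus and 68.4 and 82.0 against 116 and 85.4 CPM in the caudate putamen. Only 7 members passed the filter on low counts there, 3 of them beta members, and none was called by edgeR, where 1.23% of all genes rose averaged over regions, 0.603% in the hippocampus and 0.191% in the caudate putamen. None had an unadjusted p under 0.05 either, where 14%, 10.7% and 8.73% of all genes did. The reactive list was at 30.5 and 38.7 against 56.6 and 47.4 CPM in these sums of the hippocampus and 32.8 and 25.4 against 48.1 and 36.2 CPM in those of the caudate putamen, 4 of 7 genes higher in each. In the hippocampal sums neuronal RNA was at 1220 and 1739 against 1082 and 905 CPM, 2 of 10 genes higher. Microglia markers were at 52.1 and 57.2 against 82.3 and 71.6 CPM there, 6 of 9 higher, and oligodendrocyte markers at 201 and 320 against 185 and 131 CPM, 3 of 8 higher. Meg3 of the neuronal list fell averaged over regions (-0.56). The part of these signals was not tested. In microglia-like nuclei the beta sums overlapped between the ages in both regions, at 22.0, 36.6, 24.2 and 22.4 CPM in the hippocampus and 37.2, 24.1, 28.7 and 29.9 CPM in the caudate putamen. Their gamma sums did not overlap, at 64.4 and 64.7 against 105 and 101 CPM in the hippocampus and 52.1 and 56.6 against 84.3 and 102 CPM in the caudate putamen. No member passed the filter on low counts in microglia-like nuclei, so no member was tested there. In their caudate putamen sums the reactive list was at 8.93 and 3.67 against 32.3 and 28.8 CPM, 6 of 7 genes higher, astrocyte RNA at 411 and 350 against 472 and 486 CPM, 7 of 8 higher, and the microglia markers at 8698 and 8539 against 7986 and 6764 CPM, 0 of 9 higher. In their hippocampal sums astrocyte RNA was at 587 and 687 against 569 and 418 CPM, 1 of 8 higher, and the reactive list overlapped between the ages. The part of these signals in the gamma sums was not tested.

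**Figure D3:**
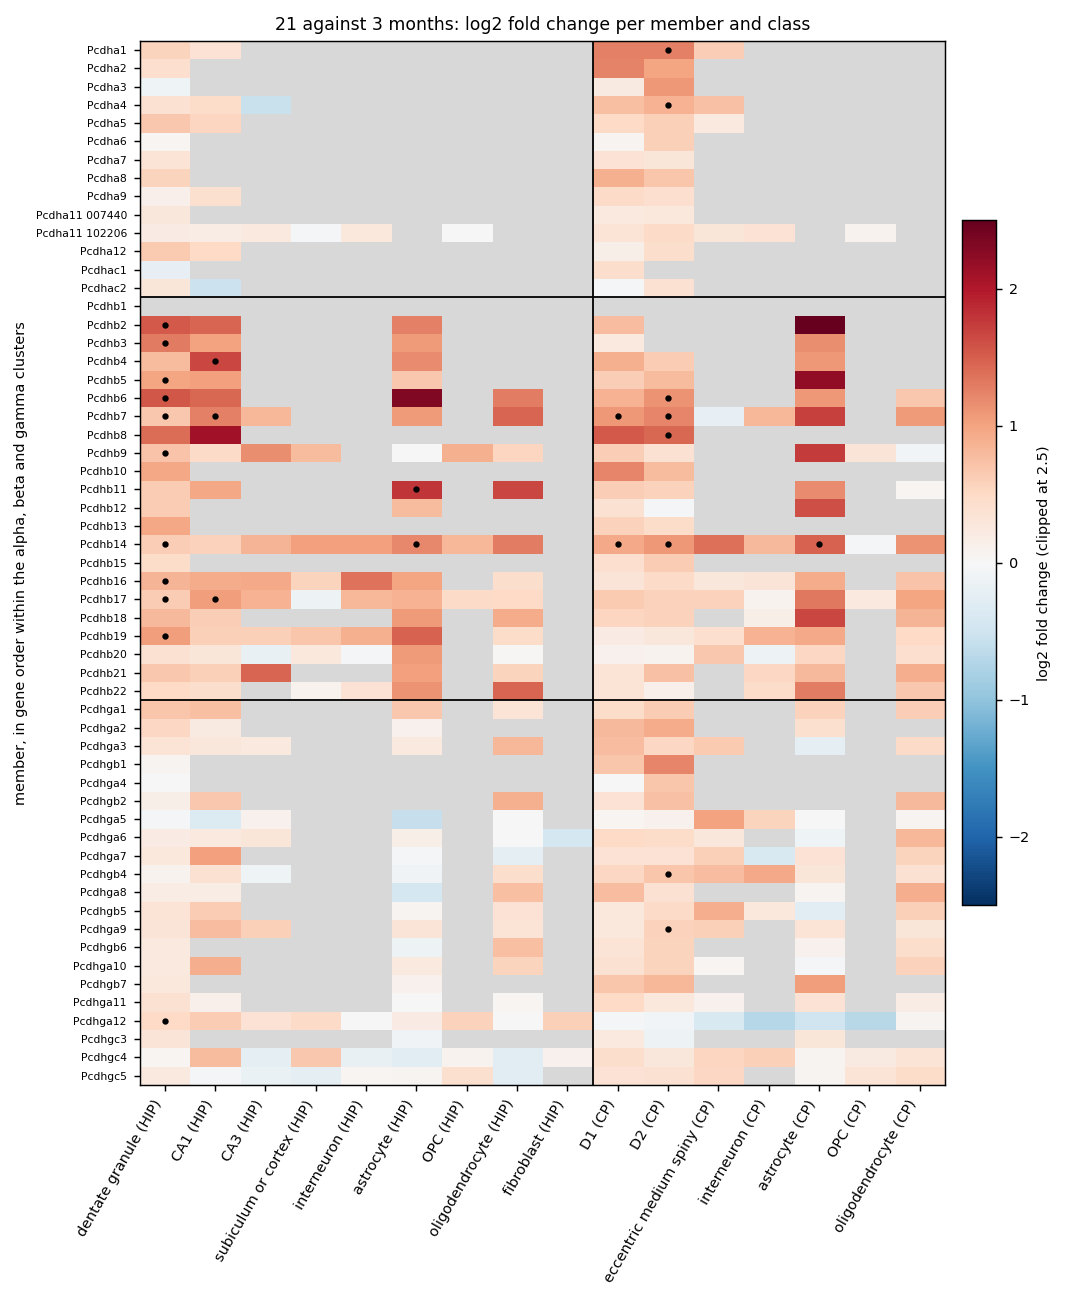
Log2 fold change of 21 against 3 months (colour, red higher, blue lower) for each member (rows, in gene order) in each class with a test (columns, hippocampus left of the line), with grey where the member did not pass the filter on low counts. Black dots mark an adjusted p under 0.05: 16 in the hippocampus and 11 in the caudate putamen, all of them red.

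Hippocampal neurons showed the beta difference as well. In dentate granule-like neurons, the class with the most nuclei, the beta sum was 29.9 and 36.0 against 54.9 and 54.1 CPM, and all 22 beta members had the higher mean at 21 months. There 11 members rose and none fell, where 2.36% of all genes rose, and 10 of the 11 were beta members. Pcdhb19 was at 2.21 and 3.01 against 5.18 and 5.36 CPM (log2 fold change 1.04, SE 0.169, adjusted p = 0.00496). Pcdhb2 rose by 1.53 (SE 0.261), from 0.521 and 0.775 to 1.65 and 2.12 CPM, and Pcdhb16 rose by 0.85 (SE 0.149). The other beta calls were Pcdhb6 (1.56), Pcdhb3 (1.29), Pcdhb5 (0.99), Pcdhb9 (0.71), Pcdhb7 (0.68), Pcdhb17 (0.64) and Pcdhb14 (0.62), each with an adjusted p between 0.0193 and 0.0454. The gamma member that rose was Pcdhga12, at 9.04 and 9.02 against 12.3 and 12.3 CPM (0.49, SE 0.105).

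In CA1-like pyramidal neurons the beta sum was 39.4 and 41.8 against 62.4 and 74.6 CPM, and 19 of 22 beta members were higher. Called there were Pcdhb7 (log2 fold change 1.26), Pcdhb4 (1.68) and Pcdhb17 (1.04), where 0.763% of all genes rose. Total UMI scaling shifted the median of all genes by -0.102 in this class. It held 919 and 1195 nuclei at 3 months and 265 and 195 at 21 months. Astrocyte RNA in its sums was 122 and 131 against 87.9 and 83.5 CPM, 1 of 8 genes higher, with Slc1a2 called lower (-0.46), and its part was not tested. CA3-like neurons had 24.4 and 31.0 against 49.5 and 34.2 CPM, interneuron-like nuclei 48.8 and 51.7 against 90.8 and 85.6 CPM, and subiculum or cortex-like neurons 48.7 and 41.2 against 61.3 and 61.5 CPM. The ages did not overlap in these 3 classes. No member was called in them, where 0.0397% of all genes rose in CA3-like neurons and 0% in interneuron-like, subiculum or cortex-like and fibroblast-like nuclei. Astrocyte RNA was at 505 and 530 against 603 and 567 CPM in the CA3-like sums, 3 of 8 genes higher. In the interneuron-like sums it was at 197 and 173 against 147 and 72.9 CPM, 2 of 8 higher. The reactive list was at 7.87 and 7.48 against 10.7 and 10.1 CPM in the subiculum or cortex-like sums, 5 of 7 higher. The part of these signals was not tested. In hippocampal astrocyte-like nuclei alone 2 members were called, where 0.519% of all genes rose. They were Pcdhb11 and Pcdhb14, whose rise in astrocyte-like nuclei was known when it was picked. Without the filter on low counts 7 were called, with no share of all genes given for that fit.

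In the hippocampus fewer than the 16 calls over all classes were left when either of the 21-month libraries was left out. They numbered 0 without the first and 3 without the second of these, fits in which the lone library is taken to vary like the other groups. For the average over regions, 10 calls became 4 and 3 without the first and second hippocampal libraries at 21 months. They became 6 and 5 without the first and second caudate putamen libraries at 3 months, and 4 without the first of that region at 21 months. Pcdhb14 in astrocyte-like nuclei stayed past the threshold in each of these fits of the average, with log2 fold changes of 1.24 to 1.44.

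In medium spiny neurons of the caudate putamen all 3 clusters were higher at 21 months, as they were in dentate granule-like neurons. In D1-like neurons the beta sum was 32.9 and 37.9 against 54.6 and 56.4 CPM, the gamma sum 69.1 and 65.1 against 83.4 and 87.0 CPM and the alpha sum 16.9 and 17.4 against 27.6 and 22.9 CPM. In D2-like neurons, of the indirect pathway, the beta sum was 31.1 and 32.3 against 50.8 and 52.6 CPM. The gamma sum there was 73.3 and 69.0 against 87.6 and 94.9 CPM and the alpha sum 16.7 and 16.9 against 27.5 and 26.0 CPM. None of these 6 sums overlapped between the ages. The ratios of 21 to 3 months in D2-like neurons were 1.63 for beta, 1.28 for gamma and 1.59 for alpha, and in dentate granule-like neurons 1.65, 1.18 and 1.23. Whether these ratios differ between the classes was not tested.

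In D2-like neurons 8 members rose and none fell, where 1.7% of all genes rose. Pcdhb14 was at 4.92 and 5.44 against 10.8 and 11.6 CPM (log2 fold change 1.09, SE 0.113, adjusted p = 0.0115) and Pcdhb7 at 3.08 and 2.61 against 6.47 and 6.82 CPM (1.21, SE 0.137). Pcdhb6 (1.12) and Pcdhb8 (1.44) were the other beta members. From the alpha cluster Pcdha1 rose from 1.66 and 1.68 to 4.87 and 3.26 CPM (1.26, SE 0.227) and Pcdha4 from 2.19 and 2.32 to 3.88 and 4.45 CPM (0.86, SE 0.157). From the gamma cluster Pcdhgb4 rose by 0.70 (SE 0.115) and Pcdhga9 by 0.58 (SE 0.119). In D1-like neurons Pcdhb7 (1.08, SE 0.126) and Pcdhb14 (0.94, SE 0.145) rose, where 0.461% of all genes did. Without the filter on low counts 1 alpha, 6 beta and 3 gamma members were called there, with no share of all genes given.

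In astrocyte-like nuclei of the caudate putamen Pcdhb14 was the 1 member called, where 0.293% of all genes rose. Its rise in astrocyte-like nuclei was known when it was picked, so this call is no independent support. Without the filter on low counts 4 beta members were called. None was called in interneuron-like nuclei, where 0.0232% of all genes rose, or in eccentric medium spiny-like neurons, where 0% did, though 1 beta member was called in the latter without the filter. No share of all genes is given for the fits without the filter. The 11 calls of this region became 3 and 4 without the first and second library at 3 months, and 2 and 1 without the first and second at 21 months. More than 11 calls were made with the replicate number as a block and without the filter on low counts. No share of all genes is given for the block fit either. Astrocyte marker RNA in the D1-like sums was 40.4 and 26.4 against 51.4 and 61.9 CPM, 8 of 8 genes higher. It was 53.0 and 27.0 against 48.2 and 61.9 CPM in the D2-like sums, 7 of 8 genes higher, and 51.1 and 27.2 against 64.4 and 84.4 CPM in the eccentric medium spiny-like sums, 7 of 8 higher. Interneuron-like sums of this region had 136 and 118 against 203 and 200.4 CPM, 5 of 8 higher. The reactive list was at 5.83 and 4.47 against 10.4 and 9.87 CPM in the D1-like sums, 7 of 7 genes higher, and at 6.04 and 4.52 against 10.6 and 10.1 CPM in the D2-like sums, 6 of 7 higher, and C4b rose in both (3.36 and 2.98). The part of these signals in the member differences was not tested. Over all classes of both regions, no member fell at an adjusted p under 0.05 by edgeR, or by DESeq2 where it gave an adjusted p. DESeq2 gave none for 72 of the 208 tests of a member in a class in the hippocampus and for 89 of 217 in the caudate putamen. By edgeR 67 of the 208 and 78 of the 217 were higher at an unadjusted p under 0.05, and 0 and 2 were lower. Over the same classes 5.54% of all gene tests in the hippocampus and 7.49% in the caudate putamen were higher at that threshold, and 6.49% and 7.39% were lower. At the adjusted threshold, up to 1.87% of all genes fell in a hippocampal and up to 2.38% in a caudate putamen class.

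Pcdhb14, the beta member with the highest mean level, was followed through all classes. It was picked with its rise in astrocyte-like nuclei of these data already known, so its astrocyte result is no independent support. Its level at 3 months was highest in hippocampal astrocyte-like nuclei and lowest in hippocampal oligodendrocyte-like nuclei, at 2.24 and 3.52 CPM, among the classes with a test. In the D1-like neurons it was at 5.55 and 7.11 against 11.8 and 13.1 CPM and in eccentric medium spiny-like neurons at 4.31 and 6.21 against 13.8 and 14.4 CPM. The latter had a log2 fold change of 1.37 (SE 0.268), but an adjusted p of 0.168 in a class in which no gene passed. Interneuron-like nuclei had 7.29 and 8.97 against 14.7 and 17.2 CPM in the hippocampus and 5.32 and 7.93 against 11.1 and 12.4 CPM in the caudate putamen, with adjusted p of 0.648 and 0.263. CA1-like neurons were at 6.18 and 6.70 against 8.89 and 9.12 CPM (adjusted p = 0.204). Among the classes tested the log2 fold change was below 0 only in OPC-like nuclei of the caudate putamen, at -0.05 (SE 0.430) with overlapping ages. Several Pcdhb14 calls were lost when a library was left out. Such fits keep a single library in a group, so a lost call does not show that the rise came from the library left out. In the hippocampal astrocyte-like nuclei alone the adjusted p was 0.111 without the first library at 21 months. In dentate granule-like neurons it was 0.343 and 0.128 without the first and second library at 21 months, and in D2-like neurons 0.10 and 0.141 likewise. In D1-like neurons the call was lost without any 1 of the 4 libraries (adjusted p 0.0841 to 0.215). In oligodendrocyte-like nuclei averaged over regions it was 0.0932 and 0.0759 without the first and second hippocampal library at 21 months and 0.0574 without the first caudate putamen library at 3 months.

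**Figure D4:**
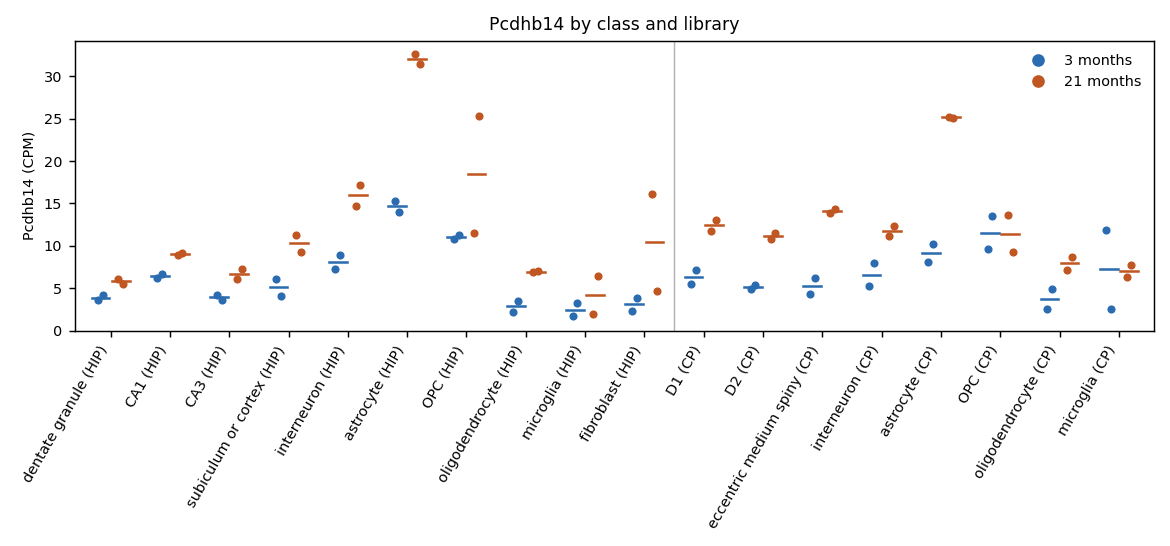
Pcdhb14 in CPM (vertical axis) by class, hippocampus left and caudate putamen right of the grey line, with 1 point per library, blue at 3 and orange at 21 months, and bars for the mean of 2. Hippocampal astrocyte-like nuclei stand at 15.4 and 14.03 against 32.6 and 31.4 CPM.

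The neighbours of Pcdhb14 in gene order had low levels. Pcdhb13 lies between 37442500 and 37446209 and had 0.381 and 0.484 against 1.67 and 1.06 CPM in hippocampal astrocyte-like nuclei. Pcdhb15, between 37473540 and 37476340, had 1.02 and 1.45 against 0.837 and 2.38 CPM there, with the ages overlapping. Both were tested only in dentate granule-, D1- and D2-like neurons, with no call. The difference between the age effects of the 2 regions was tested in the 3 glial classes with members above the filter. No member was called, nor was any gene (0% in astrocyte-like, 0% in oligodendrocyte-like and 0% in OPC-like nuclei). Of 70 such tests 3 had an unadjusted p under 0.05 by edgeR, where 6.23% of all gene tests did, and 0 by DESeq2, which gave no adjusted p for 35 of them. For Pcdhb14 in astrocyte-like nuclei the difference was 0.29 (SE 0.252).

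Between regions, astrocyte-like nuclei of the caudate putamen had less of several beta members. Over both ages 6 of the 35 members tested were lower there, where 9.79% of all genes were lower, and 1 was higher, where 11.2% were. Pcdhb17 was lower by -0.82 (SE 0.172, adjusted p = 0.00373), Pcdhb14 by -0.55 (SE 0.126, adjusted p = 0.00609) and Pcdhb18 by -1.45 (SE 0.400). Pcdhb22 was lower by -0.78 (SE 0.244), Pcdhb16 by -0.71 (SE 0.235) and Pcdhb2, with 0 to 7 UMIs in a caudate putamen library, by -2.16 (SE 0.613). With so few UMIs there, Pcdhb2 can have passed the filter on low counts through the hippocampal libraries, so its call adds no separate support. Higher was Pcdhgc5, at 12.6, 13.8, 13.5 and 12.4 CPM in the hippocampus and 18.1, 16.9, 16.3 and 20.1 CPM in the caudate putamen (0.41, SE 0.130). For Pcdhgc5 the regions did not overlap. In these astrocyte-like sums oligodendrocyte markers were at 260 to 299 CPM in the caudate putamen and 132 to 208 CPM in the hippocampus. The reactive list was at 51.1 to 255 CPM in the caudate putamen and 211 to 416 CPM in the hippocampus, and the part of both signals was not tested. No member differed between regions in oligodendrocyte-like nuclei, where 7.94% of all genes were higher and 5.02% lower, or in OPC-like nuclei, where 2.77% were higher and 2.4% lower. Without the first or second hippocampal library at 21 months, or the first caudate putamen library at 3 months, 3 of the 7 calls were left in number, and 4 without either caudate putamen library at 21 months. DESeq2 called 2. Without the filter on low counts 8 beta members were lower and none higher in astrocyte-like nuclei, so that the Pcdhgc5 call was lost. With doublets kept, 18 calls were made over all classes, 11 higher and 7 lower in the caudate putamen. No share of all genes is given for that fit. The calls named here for astrocyte-like nuclei did not change sign in it.

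The same differences were read nucleus by nucleus after each nucleus was thinned to 3000 UMIs, with nuclei below that depth left out. In hippocampal astrocyte-like nuclei this left out 365 of 1693 and 323 of 1632 nuclei at 3 months and 121 of 1494 and 52 of 717 at 21 months. Among hippocampal astrocyte-like nuclei 14.9% and 15.8% had a beta UMI at 3 months and 27.6% and 28.0% at 21 months, and the exact binomial 95% intervals, which cover counting error only, were 13.9% to 17.9% in the second library at 3 months and 24.6% to 31.5% in the second at 21 months. In the caudate putamen the shares were 10.4% and 11.1% against 22.7% and 21.7%. Dentate granule-like neurons had 8.79% and 10.6% against 16.1% and 14.7%, and D1-like neurons 9.51% and 9.80% against 15.2% and 14.8%. Microglia-like nuclei, with few nuclei of this depth, had 5.13% and 9.35% against 7.14% and 1.47% in the hippocampus and 6.25% and 5.14% against 6.34% and 11.1% in the caudate putamen. Before thinning the median depth of a hippocampal library was 2443 to 2800 UMIs in microglia-like and 4251 to 5181 UMIs in astrocyte-like nuclei. The astrocyte shares of both regions at 21 months stood above every microglia share, whereas the 3-month shares in dentate granule-like, D1-like and caudate putamen astrocyte-like nuclei lay within the microglia range.

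Thinned to 1500 UMIs, where 2 to 10 nuclei of such a library were left out, the beta shares of hippocampal astrocyte-like nuclei were 7.90% and 8.10% against 16.3% and 16.5%. The share with a beta UMI was higher at 21 months without overlap in 15 of 21 classes at 3000 UMIs and in 14 at 1500 UMIs, where 1 was lower without overlap. No such count over all genes is given, here or for 2 or more members below.

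The share of nuclei thinned to 3000 UMIs with UMIs of 2 or more beta members was higher at 21 months without overlap in 12 of 21 classes, and the ages overlapped in the other 9, with no test made. Of the thinned astrocyte-like nuclei 1.73% and 1.76% at 3 months and 6.77% and 5.86% at 21 months in the hippocampus had 2 or more beta members. At 1500 UMIs these shares were 0.297% and 0.429% against 2.42% and 1.96%. Overlapping classes included, at 3000 UMIs, OPC-like nuclei of the caudate putamen, at 0.637% and 3.05% against 3.29% and 2.19%. Pcdhb14 alone was found in 3.77% and 3.29% against 8.16% and 8.27% of hippocampal astrocyte-like nuclei, and in 2.11% and 3.88% against 6.89% and 6.71% of those of the caudate putamen. Microglia-like nuclei with a Pcdhb14 UMI made up at most 5.56% of a library, in 54 nuclei. The share of hippocampal astrocyte-like nuclei with a gamma UMI was 30.9% and 30.4% against 31.7% and 28.4%. Without thinning, 21.1% and 24.1% of hippocampal astrocyte-like nuclei at 3 months and 40.6% and 42.0% at 21 months had a beta UMI.

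**Figure D5:**
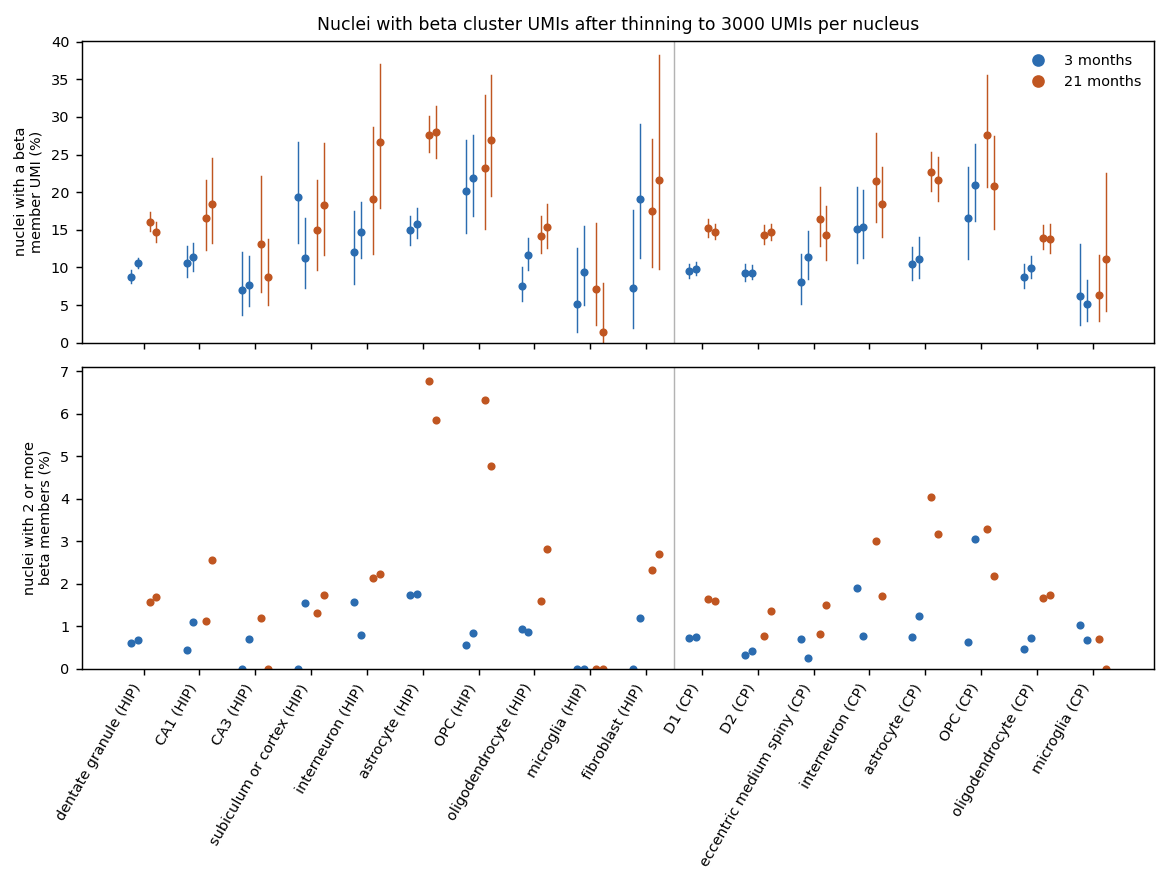
Share of nuclei with a beta member UMI (top) and with UMIs of 2 or more beta members (bottom), in percent of the nuclei thinned to 3000 UMIs, by class and region, with 1 point per library, blue at 3 and orange at 21 months. Lines in the top panel are exact 95% intervals; hippocampal astrocyte-like nuclei stand at 14.9% and 15.8% against 27.6% and 28.0%.

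Other genes of the pathway were counted from lists, averaged over regions in glia. Of all genes tested in this average 311 rose and 186 fell of 15032 in astrocyte-like, 521 and 315 of 14630 in oligodendrocyte-like, 129 and 82 of 10454 in OPC-like and 121 and 20 of 10269 in microglia-like nuclei. In neurons, 425 rose and 336 fell of 17992 genes in dentate granule-like and 113 and 205 of 14811 in CA1-like neurons. In D1-like neurons 85 rose and 153 fell of 18435 genes, and in D2-like neurons 296 and 413 of 17363.

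Of 25 genes for the architecture and silencing of the locus (CTCF, cohesin and its loader, DNA methylation, heterochromatin), all 25 were tested in astrocyte-like nuclei and 1 rose with age. It was Rest, a repressor that binds silencer elements of neuronal genes (log2 fold change 0.61, SE 0.140, adjusted p = 0.0329). In oligodendrocyte-like, OPC-like and microglia-like nuclei and in dentate granule-, CA1-, D1- and D2-like neurons 0 of the 24 or 25 tested were called. Of the 14 genes that neighbour the locus, Taf7 between the beta and gamma arrays included, none was called in a glial class. In astrocyte-like nuclei 11 of them were tested, with a median log2 fold change of -0.015. In D2-like neurons 1 of 13 rose, Arap3 (1.48).

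Of the 12 non-clustered protocadherins, which are outside the 3 arrays, 10 were tested in astrocyte-like nuclei, where Pcdh19 fell (-0.72, SE 0.168) and none rose. One of the 12, Pcdh1, is also on the list of neighbours. In oligodendrocyte-like nuclei Pcdh15 rose (0.67), and Pcdh19 (-1.23) and Pcdh7 (-0.84) fell. In dentate granule-like neurons Pcdh7 rose (0.76) and Pcdh15 fell (-1.11), and in CA1-like neurons Pcdh11x (-2.64), Pcdh15 (-2.37) and Pcdh7 (-0.70) fell. In D1-like neurons Pcdh15 (-0.58) and in D2-like neurons Pcdh7 (-0.41) fell.

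Of 23 partners of protocadherin proteins, such as the kinases Ptk2 and Fyn, 22 were tested in astrocyte-like nuclei and Celsr1 rose (0.52). In the other glia Ptk2 (0.73) rose in microglia-like, Fyn (-0.43) fell in OPC-like, and Prkca (0.41) rose and Nlgn2 (-0.56) fell in oligodendrocyte-like nuclei. Prkca (0.40) rose in CA1-like neurons, and Nlgn2 (-0.50) and Celsr3 (-0.44) fell in D2-like neurons. Of 19 classical cadherins and catenins 18 were tested in astrocyte-like nuclei, where Ctnna2 (-0.52) and Cdh6 (-0.99) fell. Cdh8 (1.94) and Ctnna3 (0.32) rose in oligodendrocyte-like nuclei, and Cdh18 (0.55) and Cdh4 (0.46) in OPC-like nuclei. In dentate granule-like neurons 4 of 18 tested rose, Cdh18 (0.81), Cdh20 (1.05), Cdh13 (0.52) and Cdh22 (0.61), and Cdh10 (-0.52) fell. In CA1-like neurons Cdh13 (0.96) rose and Cdh20 (-3.49) fell, and in D2-like neurons Cdh6 (-0.44) fell.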

How the data were processed

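Nuclei were profiled by droplet RNA sequencing in 8 libraries, each a pool of 1 male and 1 female mouse. The deposited UMI counts per gene and barcode were used as the authors made them. Per the submitters' processing notes these came from Cell Ranger 4.0.0 on mm10, whereas the file headers name 6.1.2 in 7 libraries and 7.0.0 in 1. Whether intron reads were counted is not given in the sources used here. Gene positions were taken from GENCODE annotation of GRCm38. Barcodes under 500 genes or over 5% mitochondrial UMIs were dropped, Scrublet doublets removed (scanpy 1.11.5), and nuclei clustered per region (3000 variable genes without the members, 40 components, Leiden resolution 1.0, leidenalg 0.10.2). Clusters were named from at least 3 markers. UMIs were summed per class and library (at least 20 nuclei) and fitted over all genes with edgeR 4.0.16 (TMM, filterByExpr, quasi-likelihood, Benjamini-Hochberg), after a test on simulated data. DESeq2 1.42.0 and the other settings were alternatives. Shares of all genes are those of the main fits unless another setting is named beside them. The members, lists and tests were chosen with earlier results of these data known. All 57 members were accounted for. Named with values were those past an adjusted p of 0.05 (up to 10 per age or region comparison, 3 per direction between classes), the 3 highest of each cluster, Pcdhb14 with its neighbours and the C-type members. The labels give replicate numbers but do not tie them to shared animals, so no pairing was used. The lists of reactive astrocyte, neuronal and astrocyte RNA describe other signals in the sums, and their genes need not come from the cell type in the list's name.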

Additional observations from a re-analysis of the deposited data

How the results depend on the processing

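Counts of member calls over all classes depended on the settings, and in some comparisons so did the balance of directions. No share of all genes is given for the alternative fits, here or above, except for some class comparisons under total UMI scaling. A change in these counts can therefore not be read as particular to the members. Without the filter on low counts there were 18 calls in place of 10 for the age effect averaged over regions, 29 in place of 16 in the hippocampus, 29 in place of 11 in the caudate putamen, and 47 in place of 28 for neurons against glia. DESeq2 called 8 members with age in the hippocampus and 2 between regions, in place of 7, with no adjusted p for 72 of 208 member tests in the hippocampus, 89 of 217 in the caudate putamen and 23 of 70 averaged. With doublets kept, 5 calls were left for the averaged age effect and 18 were made between regions, 11 higher and 7 lower in the caudate putamen. Total UMI scaling, chosen after seeing the data, left 10 calls with age in the hippocampus, and between neurons and glia it gave 39 calls. Leaving out 1 library at a time gave 3 to 13 calls for the averaged age effect, 0 to 19 in the hippocampus, 1 to 13 in the caudate putamen, 3 to 5 between regions and 4 to 8 between principal neurons. The fit with a replicate block gave 12 calls averaged, 22 in the hippocampus, 39 in the caudate putamen and 7 between regions. The labels do not say what a shared number stands for. Correlations of same-numbered libraries ran from -0.182 to 0.319 over the hippocampal classes (median -0.015) and from -0.113 to 0.519 over the caudate putamen classes (median 0.16), with 0.519 in D1-like and 0.336 in D2-like neurons. The age difference between regions had 0 calls under every setting. Among the named member results that were refitted, Pcdhb14 in caudate putamen OPC-like nuclei turned, from -0.05 to 0.26 and 0.22 without the second library at 3 or at 21 months and to 0.14 with doublets kept (-0.34 to 0.26 over all left-out libraries); the cause was not tested. Glial classes fitted within each region gave no averaged value. Means of per-nucleus CPM changed the direction of the age ratio of a cluster sum only for gamma in caudate putamen astrocyte-like nuclei, from 1.02 to 0.99. Thinning to 1500 in place of 3000 UMIs moved 181 of 210 shares of nuclei, since fewer UMIs per nucleus were read. The 2 pools per group and the few UMIs per member limit the precision, and members under the filter on low counts, which include every member in microglia-like nuclei, were not tested.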
